A study of Mus musculus with 6 samples.

Results

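The collagen crosslinking enzymes were 9 genes taken by symbol from the count tables: the lysyl oxidases Lox, Loxl1, Loxl2, Loxl3 and Loxl4, the lysyl hydroxylases Plod1, Plod2 and Plod3, and the transglutaminase Tgm2. All 9 had a row in each of the 6 tables, out of 20490 symbols that the 6 tables share. Droplet single-cell RNA sequencing had been run on 6 libraries, 1 for each condition, each from 3 mice pooled. All fibroblasts (FBs) came from adult males of the reporter strain B6.129S4-Pdgfra tm11(EGFP)Sor/J (Pdgfra-GFP), where a nuclear EGFP knocked into the Pdgfra gene marks cells that use it, so every group, controls included, carries the reporter allele. The single-dose libraries held GFP+ lung cells sorted 14 days after 1 oropharyngeal dose of PBS or of bleomycin, a DNA-damaging drug that causes lung fibrosis, at 2 U/kg by the protocol and 4 U/kg by the treatment label. For the repetitive libraries, 3 doses of PBS or bleomycin were given a week apart, the bleomycin at 1 U/kg for the first pair of doses and 0.5 U/kg for the last, and GFP+ cells were taken 14 days later. The organoid libraries held GFP+ FBs taken 14 days after 1 dose of PBS (normal organoid) or of bleomycin at 2 U/kg (fibrogenic organoid) and grown for 2 weeks in Matrigel with alveolar type II epithelial cells (AEC2s), which were tomato+ because a tamoxifen-inducible Cre driven from Sftpc had marked them. The sort selected cells for the Pdgfra reporter, so lung FBs without it were not meant to be sampled. Some cells of other types passed the sort.

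A collagen fibril gains its strength after secretion, when lysyl oxidases, copper enzymes of the matrix, turn lysine side chains of collagen and elastin into aldehydes that condense with neighbouring chains. Which crosslinks form depends on an earlier step inside the endoplasmic reticulum, where the Plod enzymes add a hydroxyl group to chosen lysines of procollagen. Tgm2 makes a different bond, between glutamine and lysine, in fibronectin and other matrix proteins, and crosslinked collagen is known in fibrotic lung as stiff and slow to be degraded.

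The lysyl oxidases share the copper site, whose 3 histidines lie close together in the protein, and the coding stretch of that site shows how alike Loxl1 to Loxl4 are where they act. Each of the 4 genes, and Lox, had exactly 1 in-frame match to the codons of this histidine motif in its first Gencode vM21 transcript. The stretches are given as coding strand, 5′ to 3′, with the codons of the copper-binding histidines in capitals.
Loxl1: catagctgtCACcaaCATtacCAC
Loxl2: cacgactgcCACaggCACtacCAC
Loxl3: catgagtgtCATgggCATtacCAC
Loxl4: caccagtgcCACaggCACtacCAC
Of the 24 bases, 14 were identical in all 4 genes. Loxl2 and Loxl4 shared 22 bases, and Loxl1 and Loxl4, the least alike pair, shared 15. In each gene an intron splits the stretch after its first 14 bases. On GRCm38 the stretch spans chr9:58293720-58294372 across exons 3 and 4 in Loxl1 (minus strand) and chr14:69682325-69689037 across exons 10 and 11 in Loxl2 (plus strand). In Loxl3 it spans chr6:83050004-83050125 across exons 10 and 11 (plus strand), and in Loxl4 chr19:42598807-42599890 across exons 11 and 12 (minus strand).

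The kit named for the single-dose libraries primes at the 3′ end of transcripts, and the kit of the other 4 libraries is not given in the sources used here. A UMI count stands for a molecule, and the values were not scaled by length. Within the last 500 bases of their coding transcripts, the longest run that any pair of members shared was 24 bases, between Plod1 and Plod3. No gene other than a microRNA overlaps a member on the same strand. On the opposite strand, Htra2 overlaps Loxl3, Znhit1 overlaps Plod3, Rprd1b and Gm20412 overlap Tgm2, AC161119.1 overlaps Lox, Gm27177 and Gm37513 overlap Loxl2, and Gm38391 overlaps Plod2.

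Libraries differed widely in depth, from 7201081 unique molecular identifiers (UMIs) for single-dose PBS to 238618743 UMIs for the fibrogenic organoid. FBs were gated by mean marker levels, taking the highest of the scores for FBs (8 genes), mesothelial cells and smooth muscle and mural cells. The FB gate thus also held mesothelial and mural barcodes, at most 14 and 10 in a library (repetitive bleomycin). Markers of other cell types had to lie below 0.5 times the highest score, with at least 2000 UMIs, and no member was among the markers. This left 839 (PBS) and 791 (bleomycin) single-dose FBs, 5057 and 5104 repetitive FBs, and 2022 (normal) and 3096 (fibrogenic) organoid FBs, at medians of 7105 to 50918 UMIs per barcode. The repetitive bleomycin library stood apart, with 43.7% of its barcodes under 2000 UMIs against 5.31% for repetitive PBS. In the fibrogenic organoid library 33.5% were under that limit. Any pair of libraries shared between 0 and 30 barcode sequences. UMIs of a gene were summed over the gated barcodes and given as CPM (counts per 1000000 UMIs of the gate), with exact 95% Poisson intervals in brackets. Folds are ratios of CPM with exact 95% intervals. Shares of barcodes have exact 95% binomial intervals over the barcodes of a library, which are not replicates of a condition. All of these intervals cover counting error only. Over all barcodes of a library, Lox stood at 147.8, 379, 189, 218, 258 and 400.2 CPM in the order single-dose PBS and bleomycin, repetitive PBS and bleomycin, and normal and fibrogenic organoid, each below the level of its gated FBs. With 1 library per condition how much mice of a condition vary cannot be told, and no comparison of conditions carries a test.

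Among the lysyl oxidases, Loxl3, Loxl2 and Lox stood more than 2-fold above PBS after a single dose, while Loxl1 stayed below 2-fold and Loxl4 was too sparse to place. Lox, the enzyme that gives the family its name and acts on fibrillar collagen and elastin, stood at 159.9 CPM [150.0 to 170.3] in PBS FBs and 401 CPM [389 to 413] in bleomycin FBs. That is a 2.51-fold higher level [2.34 to 2.69]. After repetitive dosing the PBS level of Lox was 199.7 CPM [196 to 203] and the bleomycin level 233 CPM [229 to 237], a fold of 1.17 [1.14 to 1.2]. The intervals did not overlap in either experiment, but only the single-dose fold passed 2. Whether the 2 experiments differ in this fold was not tested.

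Loxl2 and Loxl3, both of which carry scavenger receptor domains ahead of the oxidase domain, passed 2-fold in both lung experiments. Loxl2, known for its action on basement membrane collagen, stood at 20.9 CPM [17.4 to 24.9] and 67.4 CPM [62.5 to 72.5] in single-dose PBS and bleomycin FBs, 3.23-fold higher [2.67 to 3.93]. In the repetitive FBs it stood at 23.3 CPM [22.1 to 24.6] and 61.1 CPM [59.1 to 63.2], 2.62-fold higher [2.46 to 2.80].
Loxl3 rested on far fewer molecules, 41 UMIs in the single-dose PBS FBs and 280 UMIs in the bleomycin FBs. It stood at 6.79 CPM [4.88 to 9.22] and 26.7 CPM [23.7 to 30.0], a fold of 3.93 [2.83 to 5.6]. In the repetitive FBs, with 520 and 1239 UMIs, it stood at 9.03 CPM [8.27 to 9.84] and 22.2 CPM [21 to 23.5], a fold of 2.46 [2.22 to 2.73].

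Loxl1, which is tied to elastic fibres and binds tropoelastin, was higher after bleomycin in both experiments without reaching 2-fold. It stood at 523 CPM [505 to 542] and 787 CPM [770.5 to 805] in the single-dose FBs, a fold of 1.51 [1.45 to 1.57]. The repetitive FBs held 292 CPM [287 to 296] and 503.6 CPM [498 to 509.5], a fold of 1.73 [1.69 to 1.76]. The order of Lox and Loxl1 by fold was therefore not the same in the 2 experiments. Loxl4 was close to the detection limit. It had 4 UMIs in the single-dose PBS FBs and 20 UMIs in the bleomycin FBs, and the interval of its fold, 0.964 to 11.6, includes no difference. With 90 and 146 UMIs in the repetitive FBs, the fold was 1.67 [1.28 to 2.20].

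**Figure D1:**
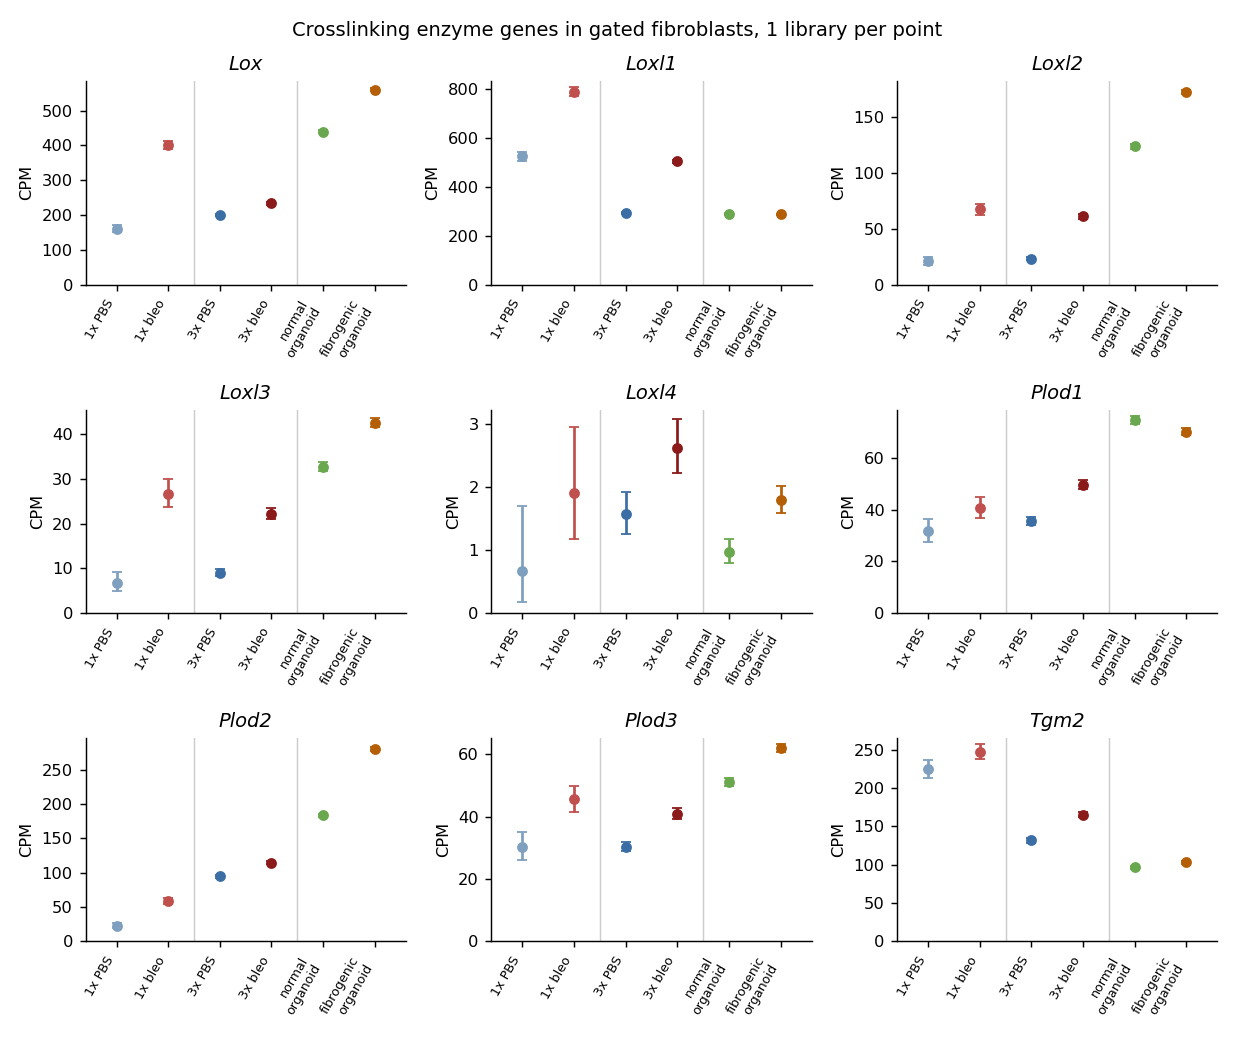
CPM of each of the 9 genes in gated FBs, on linear axes from 0, 1 point per library with its exact 95% Poisson interval. 1x is the single dose and 3x the repetitive doses, and vertical lines part the experiments, between which levels are not compared. Loxl2 stood at 20.9 and 23.3 CPM in the PBS libraries and at 67.4 and 61.1 CPM in the bleomycin libraries.

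Of the lysyl hydroxylases, Plod2 alone passed 2-fold, and in the single-dose FBs alone. Plod2 hydroxylates the lysines at the ends of the collagen chain, the step that directs crosslinks to the hydroxylysine-derived type. It stood at 22.9 CPM [19.2 to 27.0] in single-dose PBS FBs and 59.1 CPM [54.5 to 63.9] in bleomycin FBs, 2.58-fold higher [2.14 to 3.13]. For the repetitive FBs the levels were 94.8 CPM [92.3 to 97.3] and 115 CPM [112 to 118], a fold of 1.21 [1.17 to 1.26]. Its PBS levels lay far apart in the 2 experiments, and the reason was not tested. The tables also hold different numbers of gene rows (30830 and 30828 in the single-dose tables, 32285 in the repetitive tables). Levels are therefore not carried from one experiment to the other.

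Plod1 and Plod3, which hydroxylate lysines of the triple helix, were modestly higher after bleomycin. Plod1 stood at 31.6 CPM [27.3 to 36.5] and 40.6 CPM [36.9 to 44.7] in the single-dose FBs, a fold of 1.28 [1.08 to 1.53], and its fold was 1.39 [1.32 to 1.476] in the repetitive FBs. Plod3, which also adds glucose to galactosylated hydroxylysine, stood at 30.3 CPM [26.1 to 35.0] and 45.6 CPM [41.6 to 49.9], a fold of 1.5 [1.27 to 1.79], and its repetitive fold was 1.35 [1.27 to 1.43]. Tgm2 differed least of the members in the single-dose FBs. Its PBS level was 225 CPM [213 to 237] and its bleomycin level 247 CPM [238 to 257], a fold of 1.1 [1.03 to 1.18]. The repetitive FBs held 132 CPM [129 to 135] and 165 CPM [162 to 168], a fold of 1.25 [1.22 to 1.29].

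Counted together on the log2 scale of CPM + 1, 4 of the 9 members (Lox, Loxl2, Loxl3 and Plod2) were at least 2-fold higher in single-dose bleomycin FBs, where 7.69% of all genes were, and none was 2-fold lower, where 3.6% of genes were. These shares are over genes with at least 50 UMIs and 1 CPM, a filter that Loxl4 did not pass in this experiment. In the repetitive FBs 2 of 9 members (Loxl2 and Loxl3) were at least 2-fold higher, against 7.21% of genes, and none was 2-fold lower, against 2.02%. All 9 members had a ratio above 0 in both experiments, as had 6078 of 10749 genes in single-dose and 8521 of 13447 in repetitive FBs. Their median log2 ratio was 0.81 in the single-dose FBs and 0.47 in the repetitive FBs, beside medians of 0.08 and 0.11 over all genes. Relative to the shift of 0.11 of the median gene in the repetitive FBs, Lox stood at 0.11, Plod2 at 0.17, Tgm2 at 0.21 and Loxl1 at 0.67 on the log2 scale.

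**Figure D2:**
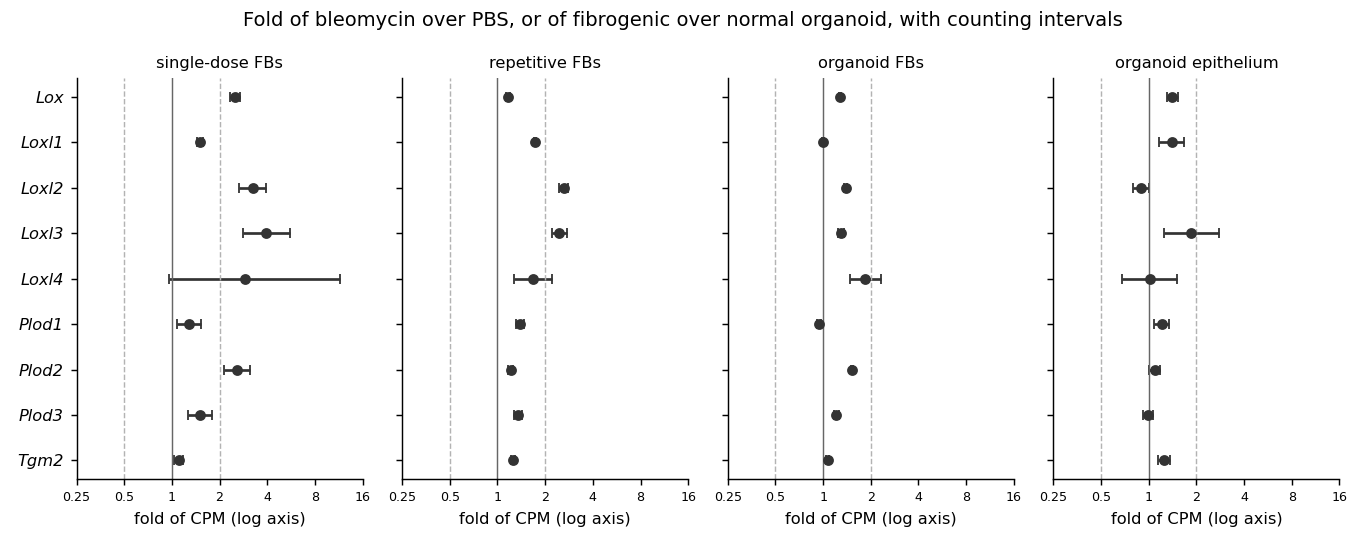
Fold of CPM for each member in 4 comparisons, on log axes, with exact 95% counting intervals. The solid line marks no difference and the dashed lines 2-fold in either direction. Lox, Loxl2, Loxl3, Plod2 and Loxl4 (2.88, with an interval from 0.964 to 11.6) lie past 2-fold in the single-dose FBs, Loxl2 and Loxl3 in the repetitive FBs, and none in the organoid FBs or epithelium.

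The share of FBs with a UMI followed the summed levels. When every barcode was thinned to 2000 UMIs, Lox was counted in 24.6% [21.7 to 27.6] of single-dose PBS FBs and 49.2% [45.6 to 52.7] of bleomycin FBs (58.2% and 89.9% before thinning, at medians of 7105 and 12099 UMIs). In the repetitive FBs the thinned shares were 28.9% [27.7 to 30.2] and 33.3% [32.0 to 34.6]. Loxl2 was counted in 2.50% [1.56 to 3.80] and 9.99% [7.99 to 12.3] of single-dose FBs, and in 4.41% [3.86 to 5.01] and 10.3% [9.47 to 11.2] of repetitive FBs. In T cells, a lineage not known for these enzymes, 1 of 81 barcodes in repetitive PBS held a thinned Lox UMI, a share of 1.23% [0.0313 to 6.69] at a median of 3532 UMIs. Loxl2 was counted in 1.23% of the same T cells before thinning and in none after it. A floor of 3 counts puts the limit at 3.70% of T cells, and the exact interval reaches higher, to 4.45%.

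The other genes of collagen assembly stood beside the members as follows. All 7 substrates (Col1a1, Col1a2, Col3a1, Col5a1, Col5a2, Eln and Fn1) were at least 2-fold higher after bleomycin in both lung experiments, with median log2 ratios of 2.16 and 1.91. Of these, Col1a1, Col1a2, Col3a1 and Fn1 are among the FB markers of the gate. Eln, the elastin gene, stood at 820 and 5419 CPM in single-dose FBs and at 668 and 3140 CPM in repetitive FBs. Fn1, whose protein Tgm2 crosslinks, stood at 483 and 3990 CPM in single-dose FBs.

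Of 9 genes that activate or place lysyl oxidases, 3 were at least 2-fold higher in each lung experiment, and 2 (single dose) and 1 (repetitive) were 2-fold lower. Bmp1, the protease that frees active lysyl oxidase from its propeptide, stood at 19.6 and 95.4 CPM in single-dose FBs and at 19.1 and 79.5 CPM in repetitive FBs. Postn, a matricellular protein that helps bring Bmp1 and Lox together, had the highest ratio of the list in both, at 5.30 and 71.3 CPM and at 1.88 and 44.9 CPM. It is also a marker of the myofibroblast gate. The lowest was Pcolce2, an enhancer of procollagen processing, at 2082 and 480 CPM and at 1921 and 777 CPM. Fbln5, which ties Loxl1 to elastic fibres, stood at 108 and 53.0 CPM in single-dose FBs and at 80.5 and 61.7 CPM in repetitive FBs.

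Of 14 genes that modify or fold procollagen, 6 (single dose) and 5 (repetitive) were at least 2-fold higher and 1 was 2-fold lower in each. P4ha3, a prolyl hydroxylase subunit, had the highest ratio, at 0.829 and 53.3 CPM and at 1.02 and 24.6 CPM. Fkbp10, the chaperone that assists Plod2, stood at 42.1 and 108 CPM in single-dose FBs and at 32.7 and 69.7 CPM in repetitive FBs, 2.56-fold and 2.13-fold higher. The lowest was Colgalt2, which adds galactose to hydroxylysine, at 11.9 and 0.954 CPM and at 29.6 and 5.15 CPM. Of the 5 other transglutaminases, Tgm1 was 2-fold higher in single-dose FBs, at 0.497 and 5.34 CPM (3 UMIs in PBS), and none was in repetitive FBs on the CPM + 1 scale. As ratios of CPM, Tgm1 had a repetitive fold of 2.21 [1.63 to 3.03] F13a1 of 8.60 [2.62 to 44.5] and Tgm3 of 9.29 [1.29 to 407], all at levels under 3 CPM, and Tgm5 had no UMI in PBS.

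The pooled FB values join subsets whose numbers differ between libraries, so the members were also read within marker gates. A gate is a range of a marker score and not a cell type, and between 7 and 318 barcodes lay within 10% of the limit in each lung gate of lipofibroblasts, matrix FBs, injured FBs or myofibroblasts that held at least 50 barcodes. The lipofibroblast gate (lipid-bearing FBs of the alveolus) held 677 and 249 single-dose and 3967 and 1637 repetitive barcodes of PBS and bleomycin. Its median myofibroblast score was 0.10 in single-dose PBS and 0.54 in single-dose bleomycin barcodes, and its median injured FB score 0 and 0.76. Within this gate Lox stood at 176 CPM and 448 CPM in single-dose PBS and bleomycin FBs, a fold of 2.55 [2.34 to 2.78], and Plod2 at 24.5 CPM and 63.5 CPM, a fold of 2.59 [2.05 to 3.28]. Both folds were about as large as over all FBs. In the repetitive lipofibroblast gate Lox stood at 219 CPM and 293 CPM, a fold of 1.34 [1.29 to 1.38], and Loxl1 at 287 CPM and 575 CPM, a fold of 2.01 [1.96 to 2.06].

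Loxl2 and Loxl3 were higher after bleomycin within the lipofibroblast gate as well. Loxl2 stood at 17.9 CPM and 33.8 CPM in the single-dose barcodes, a fold of 1.89 [1.41 to 2.53], below its fold of 3.23 over all FBs. In the repetitive barcodes it stood at 19.9 CPM and 45.1 CPM, a fold of 2.27 [2.07 to 2.50]. Loxl3 stood at 4.12 CPM and 13.9 CPM (20 and 44 UMIs) in the single-dose barcodes, a fold of 3.37 [1.95 to 6.04], and had a fold of 2.33 [1.98 to 2.73] in the repetitive barcodes. Tgm2 had folds of 1.34 [1.23 to 1.47] and 1.39 [1.34 to 1.45] in this gate.

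In the matrix FB gate (adventitial FBs around airways and vessels) the single-dose fold of Lox was larger than in the lipofibroblast gate, and the repetitive fold was about the same. Its single-dose PBS level was 70.6 CPM (52 UMIs in 109 barcodes), below that of the lipofibroblast gate, and its bleomycin level was 342 CPM (496 UMIs in 162 barcodes), a fold of 4.85 [3.64 to 6.58]. Between the same barcodes of PBS and bleomycin the median injured FB score went from 0 to 0.65, the myofibroblast score from 0 to 0.31 and the lipofibroblast score from 0.89 to 0.61, and their part in the Lox fold was not tested. In the repetitive matrix gate, with 737 and 1632 barcodes, Lox stood at 118 CPM and 157 CPM, a fold of 1.33 [1.23 to 1.44]. Loxl2 had folds of 2.22 [1.45 to 3.51] and 1.71 [1.5 to 1.95] there.

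Without injury, the gates already differed in their lysyl oxidases. In PBS FBs, the matrix gate stood lower than the lipofibroblast gate for Lox, with folds of 0.402 [0.298 to 0.532] in the single-dose and 0.538 [0.502 to 0.576] in the repetitive library. It stood higher for Loxl2, with folds of 2.04 [1.28 to 3.18] and 2.05 [1.80 to 2.33], and for Loxl3, with folds of 5.6 [2.75 to 11.2] and 3.17 [2.60 to 3.84]. Loxl1 was near parity, with folds of 1.14 [1.03 to 1.27] and 1.08 [1.03 to 1.13]. The direction of these 3 differences was the same in the 2 PBS libraries. Plod2 was lower in the matrix gate of repetitive PBS, with a fold of 0.617 [0.560 to 0.678], and its single-dose interval, 0.450 to 1.42, includes parity.

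Myofibroblasts, contractile FBs that lay down scar matrix, were gated in the bleomycin libraries, 96 single-dose and 232 repetitive barcodes. Over the lipofibroblast gate of the same library, 2 of 9 members (Loxl2 and Loxl3) were at least 2-fold higher in each, where 4.73% (single dose) and 5.79% (repetitive) of genes were. In the single-dose library 1 member, Tgm2, was 2-fold lower, where 7.51% of genes were. None was 2-fold lower in the repetitive library, where 9.18% of genes were. Loxl2 stood at 117 CPM and 33.8 CPM in the single-dose myofibroblast and lipofibroblast gates, a fold of 3.47 [2.75 to 4.41], and had a fold of 2.36 [2.08 to 2.66] in the repetitive library. Loxl3 had folds of 3.46 [2.39 to 5.07] and 2.53 [2.06 to 3.10]. Lox was not among them, at 412 CPM and 448 CPM in the single-dose gates and 257 CPM and 293 CPM in the repetitive gates. Among the lipofibroblast, matrix, injured and myofibroblast gates, the lipofibroblast gate was lowest and the myofibroblast gate highest for Loxl2 and Loxl3 in both libraries. For Loxl2 the matrix gate stood at 81.4 CPM in the single-dose and 69.6 CPM in the repetitive library. For Loxl3 the matrix gate stood at 32.4 CPM and 27.4 CPM. Levels above the lipofibroblast gate were therefore not particular to myofibroblasts.

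Plod2 stood above the lipofibroblast gate in myofibroblasts, with folds of 1.52 [1.24 to 1.87] and 1.56 [1.43 to 1.69], while Loxl1 and Tgm2 stood below it. Loxl1 stood at 586 CPM and 971 CPM in the single-dose gates, a fold of 0.603 [0.563 to 0.646], and its repetitive fold was 0.720 [0.681 to 0.760]. Tgm2 stood at 146 CPM and 306 CPM, a fold of 0.478 [0.417 to 0.546], and its repetitive fold was 0.526 [0.469 to 0.587]. The myofibroblast gate was deeper than the lipofibroblast gate in the single-dose library, at medians of 18159.5 and 12332 UMIs, and shallower in the repetitive library, at 10141 and 11437 UMIs. After thinning to 2000 UMIs, Loxl2 was counted in 12.5% [6.63 to 20.8] of single-dose myofibroblast, 16.5% [10.7 to 23.97] of injured and 5.62% [3.11 to 9.25] of lipofibroblast barcodes. At that depth the myofibroblast interval overlapped those of the injured, matrix and lipofibroblast gates, and differences between the gates were not tested. In the repetitive library the shares were 14.7% [10.4 to 19.9], 11.2% [8.17 to 14.8] and 8.80% [7.47 to 10.3], beside 11.03% [9.55 to 12.7] in the matrix gate and 18.2% [9.76 to 29.6] in 66 barcodes of a gate marked by Adh7 and Wif1, where Loxl2 stood at 88.5 CPM [68.3 to 113]. Loxl3 was counted in 5.21% [1.71 to 11.7], 5.26% [2.14 to 10.54] and 1.61% [0.439 to 4.06] of the single-dose barcodes, with intervals that overlap. Plod2 was counted in 16.7% [9.84 to 25.6] of single-dose myofibroblast and 9.24% [5.95 to 13.5] of lipofibroblast barcodes. In the repetitive library these shares were 21.6% [16.4 to 27.4] and 21.3% [19.4 to 23.4]. The intervals of the gates overlap in each library, and the difference was not tested.

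In the injured FB gate, marked by Sfrp1, Hp, Lcn2 and Saa3, Lox stood near its lipofibroblast level while other members differed. Lox stood at 483 CPM in 133 single-dose barcodes, a fold of 1.08 [0.989 to 1.17], and at 303 CPM in 376 repetitive barcodes, a fold of 1.04 [0.977 to 1.1]. Loxl2 had folds of 1.64 [1.23 to 2.17] and 1.04 [0.894 to 1.202] over the lipofibroblast gate, and Loxl3 folds of 1.85 [1.2 to 2.87] and 1.39 [1.1 to 1.73]. Plod2 was lower than in the lipofibroblast gate, with folds of 0.652 [0.493 to 0.855] and 0.796 [0.721 to 0.878]. At equal depth the single-dose shares with a Plod2 UMI did not keep this direction, at 12.03% [7.04 to 18.8] of injured and 9.24% [5.95 to 13.5] of lipofibroblast barcodes with overlapping intervals. The repetitive shares kept it, at 18.1% [14.3 to 22.4] and 21.3% [19.4 to 23.4], also with overlapping intervals.

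**Figure D3:**
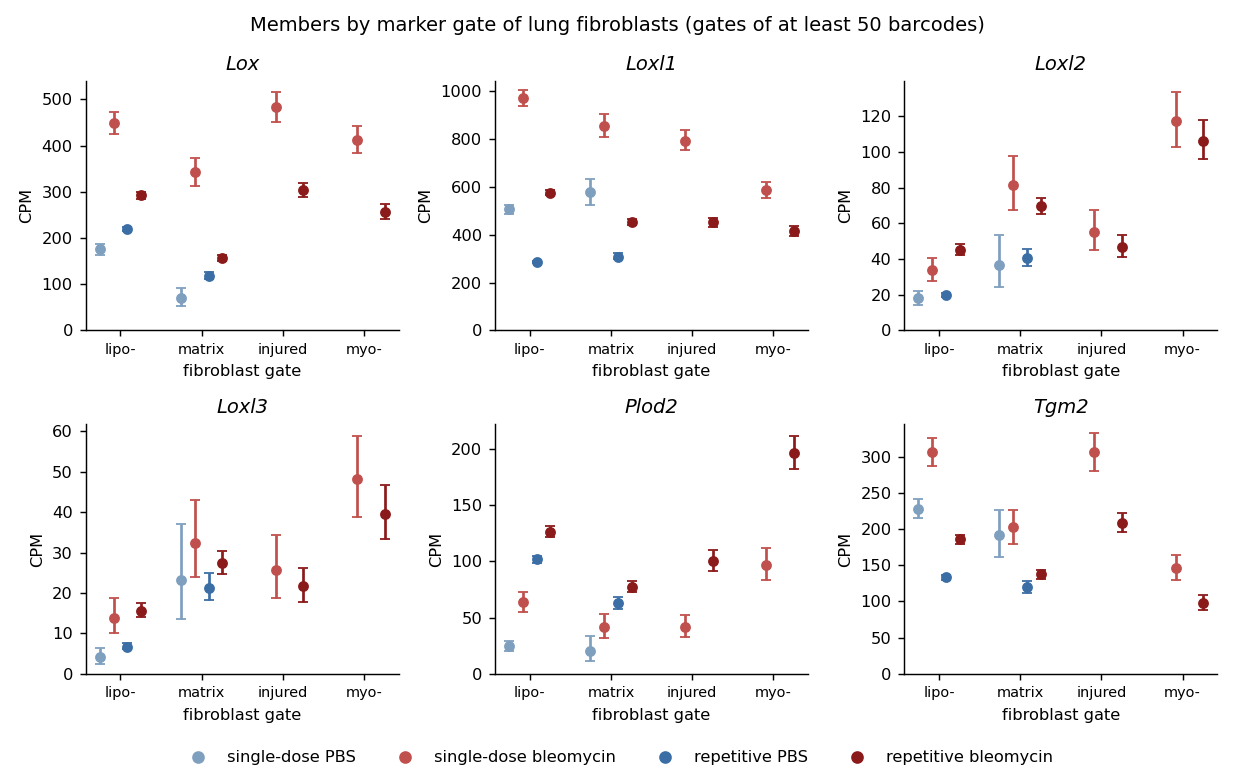
CPM of 6 members by marker gate of lung FBs, on linear axes from 0, 1 point per library and gate of at least 50 barcodes, with exact 95% Poisson intervals. Of the 4 gates plotted, Loxl2 and Loxl3 are highest in the myofibroblast gate (117 and 106 CPM for Loxl2), where Tgm2 is lowest among the bleomycin gates.

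The members were next compared by their likeness to other genes over 16 groups of at least 50 barcodes, each a subset gate in a lung library (7 single-dose and 9 repetitive). Points of 1 library share its depth, kit and mice, so the correlations describe these libraries. Ranked by the uncentred r, the gene most like Loxl2 was Col5a1, a fibril-nucleating collagen (r = 0.96, and 0.96 after centring within experiment), and Col1a1, a gate marker, was also among its first 3 (r = 0.93). Loxl3 was most like Bmp1 (r = 0.94 and 0.95 centred), Loxl1 like Bgn, the proteoglycan biglycan (0.95 and 0.88), and Plod2 like Itgb1, the beta-1 integrin (0.96 and 0.93). For Lox the first was Hist1h2bc (0.91 and 0.91), for Tgm2 Tcea3 (0.92 and 0.86) and for Plod1 Tgfbr2 (0.89 and 0.86), and no collagen was among the first 3 of these members. Ranked by the centred r instead, another gene came first for each of these 7 members, among them Ccdc6 for Loxl2 (0.97), Mlec for Loxl3 (0.95) and Prkacb for Plod2 (0.95), with Col5a1 and Bmp1 still in the first 3 of Loxl2 and Loxl3.

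The organoid comparison asked whether FBs from injured lung still differ after 2 weeks of culture with AEC2s. Among organoid FBs none of the 9 members was 2-fold higher or lower in the fibrogenic library, where 0.287% of genes were 2-fold higher and 0.97% lower. Plod2 had the largest difference of the well-counted members, at 184 CPM [181 to 186] in normal and 281 CPM [278 to 283] in fibrogenic FBs, a fold of 1.53 [1.5 to 1.55]. Lox stood at 439 CPM [435 to 443] and 561 CPM [557 to 565], a fold of 1.28 [1.26 to 1.29]. Loxl2 stood at 124 CPM [122 to 126] and 172.5 CPM [170.4 to 175], a fold of 1.39 [1.36 to 1.42].

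Loxl3 and Plod3 were likewise somewhat higher in the fibrogenic FBs, and 3 members were near parity. Loxl3 had a fold of 1.30 [1.25 to 1.35] and Plod3 of 1.21 [1.18 to 1.26]. Loxl1 stood at 288 CPM and 287 CPM, a fold of 0.995 [0.981 to 1.01], Tgm2 at 96.6 CPM and 103 CPM, a fold of 1.07 [1.04 to 1.09], and Plod1 at 74.6 CPM and 70.1 CPM, a fold of 0.940 [0.914 to 0.967]. Loxl4 rested on 108 and 278 UMIs, with a fold of 1.85 [1.47 to 2.33]. Among the pathway genes, 1 activator was 2-fold higher, the protease Tll1, at 2.08 and 10.9 CPM, and 1 substrate was 2-fold lower, Eln, at 283 and 74.7 CPM.

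Most organoid FBs fell in the myofibroblast gate, 1207 normal and 2157 fibrogenic barcodes, and there Plod2 had a fold of 1.43 [1.41 to 1.46] and Lox of 1.18 [1.16 to 1.19]. The injured FB gate, named for its markers, held 299 of 2022 normal and 209 of 3096 fibrogenic organoid FBs. Its name therefore does not mark FBs taken from injured lung here. In this smaller gate the differences were wider. Plod2 stood at 193 CPM and 401 CPM, a fold of 2.08 [1.98 to 2.19], and Loxl2 at 68.6 CPM and 141 CPM, a fold of 2.06 [1.89 to 2.25]. These were the 2 of 9 members past 2-fold there, where 1.65% of genes were higher and 1.9% lower. In the myofibroblast gate no member passed 2-fold, where 0.219% of genes were higher and 0.578% lower.

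In the organoid epithelium, 1711 normal and 1497 fibrogenic barcodes, none of the 9 members was 2-fold higher (0.172% of genes) or lower (0.101% of genes) in the fibrogenic library. Lox stood at 15.9 CPM [15 to 16.8] and 22.4 CPM [21.2 to 23.7], a fold of 1.41 [1.30 to 1.53], and Tgm2 at 16 CPM and 19.95 CPM, a fold of 1.25 [1.15 to 1.35]. In the same barcodes FB collagens were also higher in the fibrogenic library, with folds of 1.56 [1.46 to 1.67] for Col1a1, 1.73 [1.60 to 1.86] for Col1a2 and 1.56 [1.47 to 1.66] for Col3a1, and their part in the Lox difference was not tested. These levels pool cell states that differ strongly in the members.

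The epithelium was split by markers into AEC2s (1346 normal and 1054 fibrogenic barcodes), alveolar type I cells (AEC1s, 164 and 168), which form the thin gas-exchange surface, and a pre-alveolar type I transitional state (PATS, 179 and 251) that lies between them during repair. Within 10% of the PATS limit lay 4 barcodes in each library. Of the 9 members, 6 in the normal organoid (all but Loxl3, Plod2 and Plod3) and 4 in the fibrogenic organoid (Lox, Loxl2, Loxl4 and Tgm2) were at least 2-fold higher in PATS than in AEC2s, where 15.6% and 13.6% of genes were. These shares are over genes with at least 50 UMIs and 1 CPM, which Loxl4 did not reach in the fibrogenic organoid and reached in the normal organoid mostly through its 49 UMIs in PATS. Loxl1, under the limit on the CPM + 1 scale in the fibrogenic organoid, had a fold of CPM of 2.11 [1.55 to 2.84] there. Lox stood at 5.39 CPM in AEC2s, 12.4 CPM in AEC1s and 111 CPM in PATS of the normal organoid, a fold of 20.5 [18.1 to 23.4] for PATS over AEC2s. In the fibrogenic organoid it stood at 9.36, 25.3 and 84.3 CPM, a fold of 9.0 [7.95 to 10.2].

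Loxl2 showed the widest gap between PATS and AEC2s among the members with at least 50 UMIs in each PATS gate. It stood at 1.86 CPM in AEC2s, 6.67 CPM in AEC1s and 77.1 CPM in PATS of the normal organoid, a fold of 41.5 [33.9 to 51.1] for PATS over AEC2s. In the fibrogenic organoid it stood at 2.61, 7.72 and 36.9 CPM, a fold of 14.2 [11.4 to 17.8]. Tgm2 stood at 11.1 CPM in AEC2s and 53.0 CPM in PATS of the normal organoid, a fold of 4.76 [4.19 to 5.39], and at 11.1 and 57.3 CPM in the fibrogenic organoid, a fold of 5.17 [4.54 to 5.88].

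Loxl4, nearly absent from FBs, had its highest organoid level in PATS. It had 49 UMIs in PATS and 10 UMIs in AEC2s of the normal organoid, a fold of 42.5 [21.3 to 94.2]. In the fibrogenic organoid it had 42 UMIs in PATS and 0 UMIs in AEC2s, at least 67.6-fold higher against a floor of 3 counts over all AEC2s, while the exact interval of the fold, which also covers the counting error of PATS, starts at 52.6. A Loxl4 UMI was found in 19.6% of normal and 11.6% of fibrogenic PATS barcodes without thinning, but in 0.559% and none after thinning to 2000 UMIs, so its share cannot be compared at a common depth.

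Plod2 and Plod3 stayed below 2-fold between these epithelial gates. Plod2 had AEC1 over AEC2 folds of 1.80 [1.53 to 2.11] and 1.68 [1.41 to 2.00] in the normal and fibrogenic organoid. It had PATS over AEC2 folds of 1.06 [0.884 to 1.27] and 1.5 [1.29 to 1.74], and Plod3 folds of 1.26 [1.08 to 1.47] and 1.42 [1.23 to 1.63]. Loxl3 was scarce in both, with 4 and 9 UMIs in PATS.

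**Figure D4:**
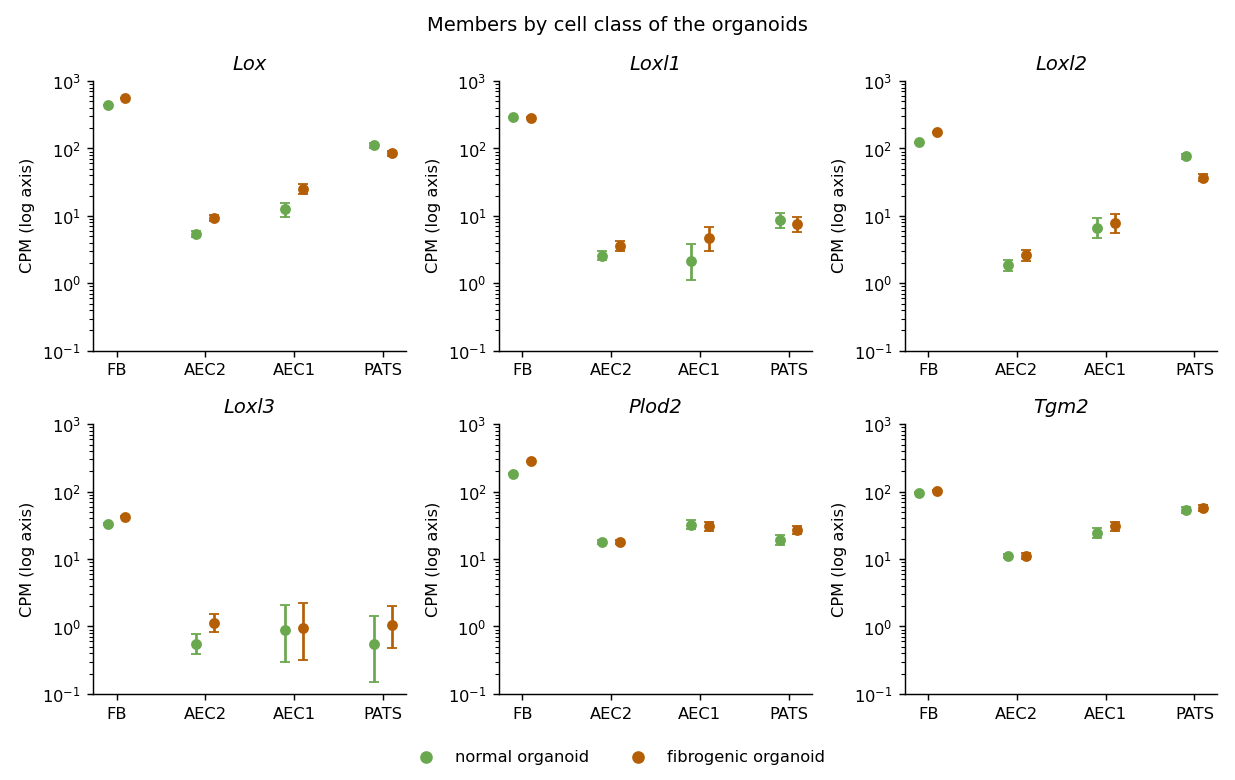
CPM of 6 members in organoid FBs, AEC2s, AEC1s and PATS on log axes, 1 point per library and gate with its exact 95% Poisson interval. Lox and Loxl2 in PATS (111 and 77.1 CPM in the normal organoid) lie between their FB and AEC2 levels, and Loxl3 stays near 1 CPM in every epithelial gate.

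FB genes in the PATS gate were read beside the members. The median FB marker score was 0.49 and 0.45 in PATS and 0.08 and 0.15 in AEC2s of the normal and fibrogenic organoid. That score includes Fn1, which stood at 357 and 411 CPM over all organoid epithelium. Among the 7 substrates Fn1 had the highest ratio of PATS over AEC2s in both organoids, so the score is not given as a measure of FB RNA. As a percentage of the level in FBs of the same library, PATS held 1.95% and 1.49% of Col1a1 and 0.559% and 0.817% of Col1a2. They held 0.725% and 1.2% of Col3a1, and 0% and 0.655% of Pdgfra. The same percentages were 25.2% and 15% for Lox, 62.3% and 21.4% for Loxl2 and 54.8% and 55.6% for Tgm2. Loxl1, at 2.97% and 2.64%, lay above Col1a1, Col1a2 and Col3a1 in both organoids. Loxl3, at 1.69% and 2.46%, did so in the fibrogenic organoid and lay below Col1a1 in the normal organoid. In AEC2s Lox lay at 1.23% and 1.67%. Col1a1 lay there at 0.619% and 1.00%, Col1a2 at 0.530% and 0.872%, Col3a1 at 0.814% and 1.39% and Pdgfra at 0.559% and 1.02%.

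At equal depth the PATS shares kept the same order over AEC2s. After thinning to 2000 UMIs, Lox was counted in 12.8% [8.32 to 18.7] of normal and 13.5% [9.57 to 18.4] of fibrogenic PATS barcodes, and in 1.11% [0.625 to 1.83] and 2.66% [1.77 to 3.82] of AEC2s. Before thinning, at medians of 33794 to 42916 UMIs, the shares were 53.6% and 50.6% in PATS and 14.4% and 23.8% in AEC2s. Loxl2 was counted in 12.8% [8.32 to 18.7] and 5.58% [3.08 to 9.18] of PATS after thinning, and in 0.371% [0.121 to 0.865] and 1.14% [0.590 to 1.98] of AEC2s.

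Between the organoids, Loxl2 and Lox stood lower in fibrogenic than in normal PATS, and Lox stood higher in the other epithelial gates. Loxl2 had a fold of 0.479 [0.416 to 0.551] and Lox of 0.762 [0.688 to 0.843] in PATS. The median AEC1 marker score of these barcodes was 0.28 in the normal and 0.39 in the fibrogenic organoid. Their median PATS score was 2.27 and 2.22, and the part of these shifts in the folds was not tested. In the shares at equal depth the lower value held for Loxl2 (12.8% and 5.58%), with intervals that overlap, and not for Lox (12.8% and 13.5%). Lox had folds of 2.03 [1.51 to 2.76] in AEC1s and 1.74 [1.5 to 2.02] in AEC2s. Col1a1 stood at 18.4 CPM in normal and 32.0 CPM in fibrogenic AEC2s. The median log2 ratio of the 7 substrates was above 0 beside the higher Lox of AEC2s (0.61) and AEC1s (0.91), and also beside the lower Lox of PATS (0.48). In each of these gates 1 or more of the 7 were not higher, with Eln lowest in AEC2s and AEC1s and Fn1 lowest in PATS. Their part in the Lox differences was not tested. Tgm2 was close to parity in AEC2s, with a fold of 0.996 [0.884 to 1.12]. In the normal and fibrogenic organoid it stood at 24.5 and 30.5 CPM in AEC1s and at 53.0 and 57.3 CPM in PATS. The organoid FBs had the reverse direction to PATS for both genes, with folds of 1.39 for Loxl2 and 1.28 for Lox, and the difference was not tested.

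Few cells other than FBs passed the lung sort, and the member most often found in them differed by cell type. Before thinning, macrophages and monocytes of repetitive PBS held a Plod3 UMI in 47.1% and a Tgm2 UMI in 43.1% of barcodes. Plasma cells of repetitive bleomycin held a Loxl1 UMI in 44.7% and a Tgm2 UMI in 34.2%. In the repetitive PBS library Tgm2 stood at 503 CPM [376 to 660.1] in 30 neutrophils (52 UMIs), 175 CPM [140.0 to 217] in 51 macrophages and monocytes and 150.3 CPM [122 to 183] in 54 endothelial cells. In 81 T cells it stood at 7.36 CPM [1.52 to 21.5], from 3 UMIs. The neutrophil level was above the 132 CPM of the FBs. Lox stood at 51.6 CPM [35.7 to 72.1] in the endothelial cells, and at 4 UMIs or fewer in the neutrophils, macrophages and T cells. Plod3 stood at 86.6 CPM [62.4 to 117] in macrophages and monocytes, above its FB level of 30.4 CPM. Summed over the 9 members, lymphocytes (T and B cells) held 3.46% and 2.22% of the FB level in repetitive PBS and bleomycin, from 13 and 9 UMIs, beside 3.44% and 1.27% for Col1a1. In single-dose PBS and bleomycin they held 6.27% and 8.47%, from 4 and 10 UMIs, beside 0% and 1.38% for Col1a1. The 38 plasma cells of repetitive bleomycin were left out of this sum. In them Lox stood at 29.7 CPM [17.9 to 46.3], beside 233 CPM in FBs, and their median FB marker score was 1.63. After thinning, Lox was counted in 13.2% [4.41 to 28.1] of the plasma cells and Loxl1 in 21.1% [9.55 to 37.3]. Whether this is RNA of FBs was not tested.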

How the data were processed

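The authors deposited 6 tables of raw UMI counts per gene and barcode, 1 per library. For the single-dose libraries the sources name the 10x 3′ v2 kit, Cell Ranger 3.0.1 and GRCm38 with Gencode M17; the kit and annotation of the other 4 are not given in the sources used here. Groups came from the sample labels. Barcodes were gated by mean log marker levels, with no doublet caller. For FBs, the highest of the fibroblast, mesothelial and smooth muscle and mural scores was at least 1. Barcodes had at least 2000 UMIs and a mitochondrial share within 3 median absolute deviations. Counts of a gene were summed over the barcodes of a gate and divided by the gate's total, which ranged from 6035006 to 155849222 UMIs over the FB gates. A member was counted as higher or lower at a log2 ratio of CPM + 1 of at least 1 in size. All members were named, and from each list the highest, the lowest and genes tied to a member's role. The members and lists were chosen with earlier results of these data known. The scripts (Python 3.11.15, numpy 2.4.6, scipy 1.17.1, pandas 2.3.3, matplotlib 3.10.9) were tested on simulated data. Alternatives changed the pseudocount, scaling, filters, gates and fold limit. Sequences and positions came from Gencode vM21 on GRCm38, an annotation that differs from the one named by the sources.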

Additional observations from a re-analysis of the deposited data

Results flagged for a closer look

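Plod1, which hydroxylates helical lysines of procollagen, stood lower in fibrogenic than in normal organoid FBs, with a fold of 0.940, and higher after bleomycin in single-dose FBs, with a fold of 1.28, and in repetitive FBs, with a fold of 1.39. In the organoid epithelium its fold was 1.21. The directions were opposite with 1 library in each condition, and the differences were not tested. Within the organoid FB gates the fold was below parity in the myofibroblast (0.911) and proliferating (0.892) gates and not in the injured (1.09 [0.985 to 1.21]) and unnamed (1.08 [0.999 to 1.16]) gates.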

How the results depend on the processing

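No paired analysis was possible because each group has 1 sample. Of 395 member ratios recomputed under alternative settings, 367 moved by less than the counting error, 28 moved further, and no ratio past 2-fold changed sign. A minimum of 50 UMIs per member was among these settings, and it can drop a member but cannot move its ratio. The count of members 2-fold higher in repetitive FBs went from 2 to 1 with a pseudocount of 5 CPM, where the log2 ratio of Loxl3 was 0.96. The count in organoid FBs went from 0 to 1 (Plod2) with a 1.5-fold limit, at which the single-dose count went from 4 to 6 and the repetitive count from 2 to 3. Of 36 member results, 4 near 0 changed sign under some setting. These were Loxl1 in organoid FBs (log2 ratio -0.14 to 0.02), Tgm2 in organoid FBs (-0.09 to 0.11), Loxl2 in organoid epithelium (-0.18 to 0.00) and Loxl4 in organoid epithelium (-0.04 to 0.05). Dropping the UMI minimum, an alternative chosen after seeing the data, raised the repetitive bleomycin FBs from 5104 to 8726 barcodes and the fibrogenic organoid FBs from 3096 to 4481 barcodes, and the counts stayed at 4, 2, 0 and 0 members higher in the single-dose, repetitive and organoid FBs and the organoid epithelium. Depth limits Loxl4, with 4 to 278 UMIs in the FB gates. The spread between mice is unknown.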
